A study of Mus musculus with 194 samples.

Results

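The mouse neuroblastoma line N2a was set against the cerebral cortex of C57bl6J mice in a calling cards experiment, in which a transposase leaves a marker transposon in the genome and the positions of the marks are read later. The tables were chosen by label alone: the 1 pooled table of N2a and the 2 tables of C57bl6J cortex, 3 of the 47 tables of the series. N2a is an established line from a tumour of a strain A mouse, so it differs from the cortex animals in strain as well as in tissue. Its labels name experiments 1, 2 and 3, which the authors combined into 1 table, and they carry the animals' text on an injection of adeno-associated virus (AAV) although N2a is a cell line. How the N2a cells were grown and how they received the transposon is not given in the sources used here. The C57bl6J animals were injected with AAV at postnatal day 0 to 1, and no transgene or deletion is named for them. Each cortex was cut into 10 pieces whose RNA was isolated apart, and the pieces of an animal were combined into 1 table; 1 barcode of animal 1 gave only 1519 insertions. The transposase, the promoter that drives it and the age at collection are not given in the labels. All 3 tables come from self-reporting transposons (SRT), whose position is read from the RNA that runs from the transposon into the flanking genome.

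The transposons used in calling cards insert at the 4 letters TTAA. Free transposase of this kind lands more often in open, active chromatin, and dense insertions are known to mark active enhancers and the genes that set a cell's identity. Neuroblastoma arises from the sympathoadrenal branch of the neural crest, whose cells are run by transcription factors such as HAND2 and GATA3 and make catecholamines. The cortex holds many glutamatergic neurons, which carry factors such as NEUROD2, NEUROD6 and TBR1, beside inhibitory interneurons, astrocytes and other glia.

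6 promoters show single insertion sites in each table. They are the 3 with the most N2a insertions among candidate genes higher in N2a, and the 3 with the most cortex insertions among those lower. Candidates were listed or named genes with a TTAA in the promoter. Genes in a part of the genome were left out before ranking, so the ranking holds among the candidates only. The promoters were chosen after the values were seen. The 250 bases before the RefSeq start site are printed 5′ to 3′ along the gene, from GRCm38.p6, with every TTAA in capitals. The genes higher in N2a are Prr9, a proline-rich protein gene (chr3:92123948-92124197, minus strand), Rrm2, which encodes a subunit of ribonucleotide reductase (chr12:24708004-24708253, plus strand), and Cdkn1b, which encodes a cyclin-dependent kinase inhibitor (chr6:134920151-134920400, plus strand).
Prr9: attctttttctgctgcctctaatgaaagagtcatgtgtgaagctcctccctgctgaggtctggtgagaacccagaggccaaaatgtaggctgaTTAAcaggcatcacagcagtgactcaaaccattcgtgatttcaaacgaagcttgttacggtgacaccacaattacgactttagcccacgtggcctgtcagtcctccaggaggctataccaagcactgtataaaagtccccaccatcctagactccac
Rrm2: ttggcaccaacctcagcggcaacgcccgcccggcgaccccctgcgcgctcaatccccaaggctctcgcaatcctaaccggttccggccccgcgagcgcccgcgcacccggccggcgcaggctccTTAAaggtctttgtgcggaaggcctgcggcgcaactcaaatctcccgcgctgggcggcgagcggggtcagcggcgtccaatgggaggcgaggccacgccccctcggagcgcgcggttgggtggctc
Cdkn1b: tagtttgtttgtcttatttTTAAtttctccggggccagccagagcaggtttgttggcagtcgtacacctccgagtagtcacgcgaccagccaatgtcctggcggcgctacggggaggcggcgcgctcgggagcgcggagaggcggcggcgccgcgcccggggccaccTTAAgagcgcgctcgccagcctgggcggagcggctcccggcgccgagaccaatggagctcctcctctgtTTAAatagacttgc
The genes lower in N2a are Tbr1, a factor of deep-layer cortical neurons (chr2:61804203-61804452, plus strand), Neurod6, a factor of cortical excitatory neurons (chr6:55681264-55681513, minus strand), and Slc17a6, a vesicular glutamate transporter (chr7:51621580-51621829, plus strand).
Tbr1: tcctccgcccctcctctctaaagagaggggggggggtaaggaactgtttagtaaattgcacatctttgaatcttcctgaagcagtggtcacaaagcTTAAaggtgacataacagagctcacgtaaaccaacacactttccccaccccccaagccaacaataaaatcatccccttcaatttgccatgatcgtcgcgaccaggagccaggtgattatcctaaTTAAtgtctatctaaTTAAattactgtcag
Neurod6: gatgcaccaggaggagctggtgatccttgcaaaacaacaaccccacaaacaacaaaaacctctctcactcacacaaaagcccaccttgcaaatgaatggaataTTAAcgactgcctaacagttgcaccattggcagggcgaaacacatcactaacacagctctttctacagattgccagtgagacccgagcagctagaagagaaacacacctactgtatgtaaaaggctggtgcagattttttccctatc
Slc17a6: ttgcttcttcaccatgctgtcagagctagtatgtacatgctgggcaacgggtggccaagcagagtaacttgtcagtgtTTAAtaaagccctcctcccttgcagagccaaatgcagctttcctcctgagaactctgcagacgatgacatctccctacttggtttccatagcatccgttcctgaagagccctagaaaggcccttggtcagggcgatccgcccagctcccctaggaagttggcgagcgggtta
The TTAA of the Prr9 promoter, 157 bases before the start site, held 8 insertions in N2a, all from experiments 1 and 3, and 0 in either animal. At the TTAA of Rrm2, 126 bases before the start, there were 6 insertions in N2a, 0 in animal 1 and 2 in animal 2. The 3 sites of Cdkn1b held 5 insertions in N2a and 0 in either animal, 3 of them at the site 14 bases before the start. In the Tbr1 promoter N2a had 0 insertions, against 11 in animal 1 and 12 in animal 2, and each of its 3 sites was used in both animals. The site of Neurod6 held 0 insertions in N2a, 8 in animal 1 and 12 in animal 2. The site of Slc17a6 held 0 insertions in N2a, 8 in animal 1 and 11 in animal 2. These are raw counts. The animals' tables hold more insertions in all, while N2a has more libraries, which allow more insertions per position, as given below. The promoters were chosen by their counts at loci already called, so the side on which each was high was largely fixed by that choice. A TTAA was present in 45.9% of all 16457 promoters of this length, which include those of loci with too few insertions to be counted. It was present in 43.1% of promoters of loci higher in N2a and in 45.6% of those of loci lower in N2a. For counted loci past 4-fold in neither direction the share was 40.7%.

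N2a had 791147 insertions on chromosomes 1 to 19, animal 1 had 1510040 and animal 2 had 2133377. Levels are insertions scaled to a total of 1000000 on these chromosomes (IPM), in which 3 insertions are 3.79 IPM in N2a, 1.99 in animal 1 and 1.41 in animal 2. In each animal's table no barcode gave more lines per position and strand than it has libraries, so 10 libraries allow at most 20 insertions at a position, while a position in the 33 libraries of N2a reached 52. N2a has no replicate table, so no test was possible. Its values are the authors' pooled values with 95% exact Poisson intervals, and ratios carry exact 95% intervals given the summed counts. Both cover counting error only, and PCR reads are not independent molecules. The 5′ primer barcodes in the labels split the N2a table into experiment 2, with 12 libraries and 124658 insertions, and experiments 1 and 3 together, with 21 libraries and 666489 insertions. The values of these parts describe the spread within the line. In a bulk table, fewer cells of a type and fewer insertions per cell cannot be told apart.

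The defining markers Hand2 and Neurod2, chosen with earlier results of these data known, differed between N2a and the cortex. At the locus of Hand2, the gene body (chr8:57320983-57324517) with 10 kb on each side, N2a had 363 insertions or 459 IPM (413 to 509), against 1.32 IPM in animal 1 and 0.469 in animal 2. This was 346-fold the nearer animal (95.2 to 2871), which had 2 insertions. The log2 ratio to the nearer animal was 7.63, and it ran from 5.02 to 8.29 over 7 alternative ways of counting. Experiment 2 had 481 IPM and experiments 1 and 3 had 455, so both parts of N2a lay above both animals by a similar margin. At the locus of Neurod2 (chr11:98325415-98329645), a factor of cortical excitatory neurons, N2a had 12.6 IPM (6.06 to 23.2), animal 1 had 152 and animal 2 had 136. The animals were 10.8-fold or more above N2a (5.78 to 22.7 for the nearer one), and both parts of N2a lay below both animals. The log2 ratio of Neurod2 to the nearer animal was -3.33, and it ran from -3.77 to -2.16 over the same alternatives. Hand2 was thus higher in N2a and Neurod2 was higher in the cortex. Since both genes were chosen with earlier results known, this is a description and no test of the labels.

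Within 100 kb of these genes the insertions were spread unevenly over 5 kb bins. The bin with the most N2a insertions near Hand2 lay 5 to 10 kb to the right of the middle of the gene on the forward strand and held 159 insertions in N2a (201 IPM), 1 in animal 1 and 0 in animal 2. Around Neurod2 the animals' highest bin, 5 to 10 kb to the left of the gene's middle, had 60.9 and 56.2 IPM, and N2a had 0 there. A bin 70 to 75 kb to the right of Neurod2 ran the other way, with 36.7 IPM in N2a, 19.9 in animal 1 and 16.4 in animal 2, so the low level in N2a did not extend over the whole region. The highest cortex bins of Neurod6 (197 and 180.0 IPM) and Mef2c (219 and 211 IPM) each held 0 insertions in N2a. Over the full 200 kb around Neurod6, N2a had 3 insertions against 935 in animal 1 and 1257 in animal 2.

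**Figure D1:**
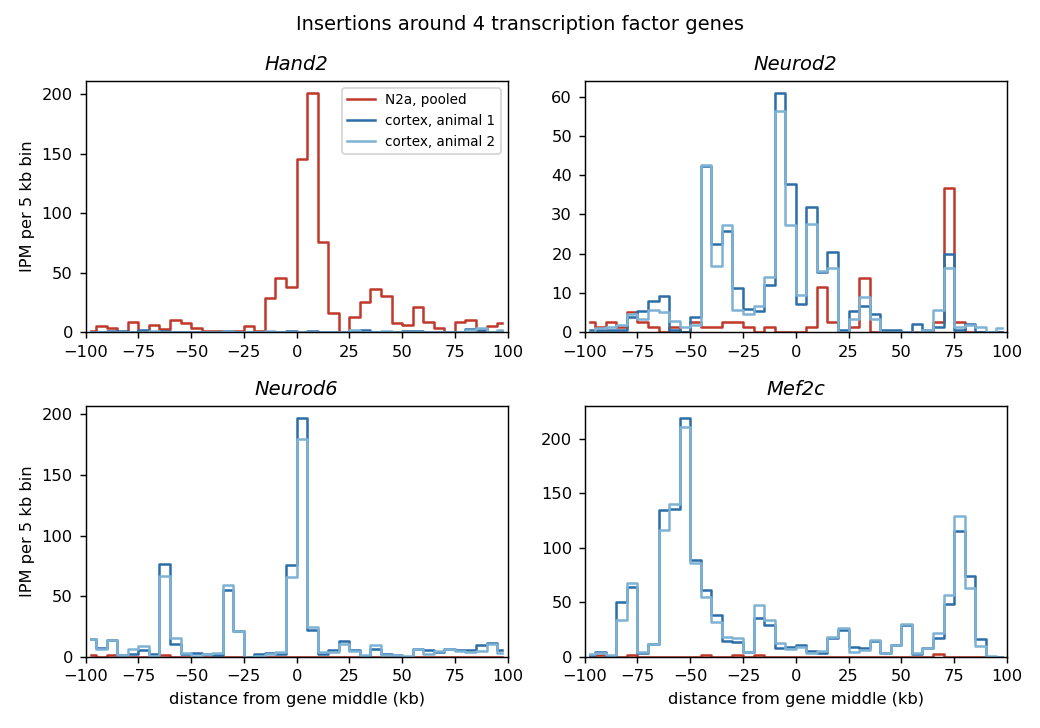
Insertions per 1000000 in 5 kb bins within 100 kb of the middle of 4 transcription factor genes (x axis, kb along the forward strand), for the pooled N2a table and the 2 cortex animals. N2a peaks at Hand2 where the animals are near 0, and the animals peak at Neurod6 and Mef2c where N2a is near 0; at Neurod2 the animals' highest bin is empty in N2a, and the bin 70 to 75 kb to the right is high in all 3 tables.

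Across the genome N2a stood apart from both animals at many places. Of 20665 protein-coding loci, 15957 had at least 20 insertions over the 3 tables. Of these, 1055 (6.61%) lay 4-fold or more above both animals and 1620 (10.2%) lay 4-fold or more below both, on the scale of IPM + 1. Between the animals 2 loci differed by 4-fold, or 0.0125%. The median log2 ratio of N2a to the animals was 0.30 over loci. In windows of 50 kb, which include the ground between genes, the balance leaned further to the cortex: of 38413 windows with at least 20 insertions, 2578 (6.71%) were 4-fold or more above both animals and 11326 (29.5%) were 4-fold or more below, with a median log2 ratio of -0.57. N2a had 0 insertions in 6242 of these windows. When each ratio was centred on the median of its 10 Mb block, the share of higher among all called places went from 18.5% to 39.8% for windows and from 39.4% to 63.5% for loci, and it was 24.9% for loci when each position was counted once. Centring gave 2143 higher and 1232 lower loci, counting each position once gave 409 and 1232, and gene bodies without flanks gave 513 and 1405. The tables differ in depth, so places dense in the deeper animals' tables reach the minimum of 20 more easily. With each table thinned to the N2a total, 2407 of 29959 counted windows were higher and 7851 lower, with a median log2 ratio of -0.17. Of 14064 loci counted after thinning, 974 were higher and 1314 lower, with a median of 0.39. Windows at 0 in N2a are bounded by its 3.79 IPM.

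**Figure D2:**
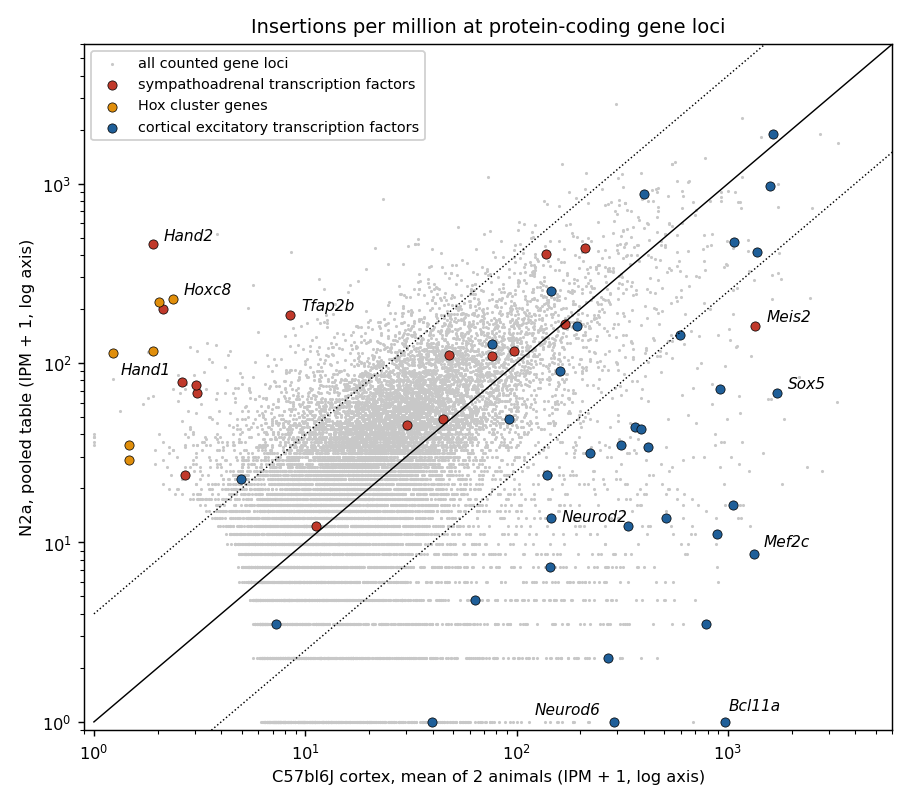
Insertions per 1000000 + 1 at each counted protein-coding locus, as the mean of the 2 cortex animals (x axis) and in the pooled N2a table (y axis), both on log axes, with the line of equality and dotted lines at 4-fold. Hand2 and the Hoxc genes lie at the upper left, and Bcl11a and Neurod6, at 0 in N2a, lie on the lower edge.

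The parts of N2a make up the pooled table, so their side at the called loci is largely fixed by the choice of those loci and is given as a description. Of the 1055 higher loci, 1041 lay above both animals in experiment 2 and 1055 in experiments 1 and 3, and 846 and 972 were past 4-fold in each part alone. All 1620 lower loci lay below both animals in both parts. Between the parts, 180 of 7985 loci with at least 20 N2a insertions (2.25%) differed by 4-fold or more. Experiment 2 has 124658 insertions, so counting error enters this share, and it is not comparable with the share between the deeper tables of the animals. Since the barcode of experiments 1 and 3 holds 666489 of the insertions, the pooled values follow that part.

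Of the 325 genes on the 13 lists used below, 269 had enough insertions to be counted, 40 of them higher in N2a and 63 lower. The counts of each list below stand beside 6.61% higher and 10.2% lower over all counted loci.

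**Figure D3:**
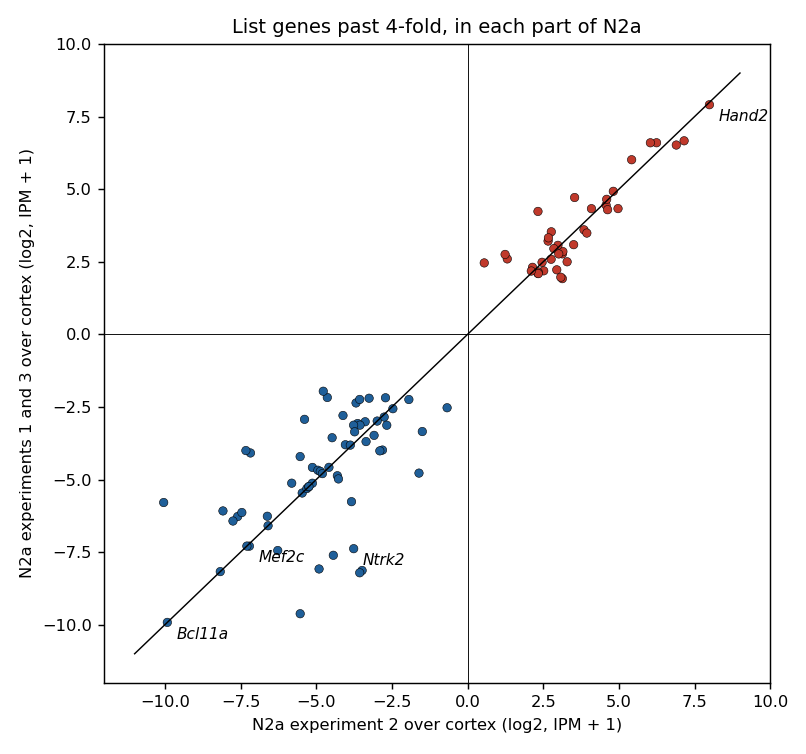
Log2 ratio to the cortex mean (IPM + 1) in N2a experiment 2 (x axis) and in N2a experiments 1 and 3 (y axis) for the 103 list genes past 4-fold, with red for higher and blue for lower in the pooled table. The genes were chosen on the pooled table that the parts make up, which largely fixes their quadrant; genes at 0 in the shallower part, such as Foxp2, and genes with a few insertions there, such as Ntrk2, scatter most around the line of equality.

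Several core factors of sympathoadrenal cells were far higher in N2a. Of 17 counted genes, 7 (41.2%) were 4-fold or more above both animals, 1 was below and 9 were neither. The median log2 ratio was 1.21, against 0.30 for all loci and 1.02 for the widely used genes described below. With each position counted once, 6 were higher and 0 lower, and the medians were 0.86 for these factors and 0.87 for the widely used genes. Beside Hand2, Phox2a, a homeobox factor of autonomic neurons, had 22.8 IPM in N2a against 1.99 and 1.41. Hand1, the paralogue of Hand2, had 77.1 IPM against 1.32 and 1.87, although it was under 4-fold when flanks were left out. The zinc finger factors Gata2 and Gata3, which act in sympathetic precursors, had 74.6 and 67.0 IPM in N2a, with at most 2.81 in either animal. Tfap2b, a neural crest factor, had 185 IPM in N2a (156 to 217), 4.64 in animal 1 and 10.3 in animal 2.

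Some other members of the group were under 4-fold, and 1 ran the other way. Sox4 had 163 IPM in N2a, 174 in animal 1 and 161 in animal 2, and Sox11 had 116, 102 and 90.0, both factors of immature neurons in many lineages. Insm1 (48.0, 43.0 and 44.5 IPM) and Isl1 (109, 83.4 and 68.0 IPM), both neurogenic factors, were within 2-fold of both animals. Meis1 was above both animals but under 4-fold, at 406 IPM against 133 and 142. Its relative Meis2 ran against the group, with 161 IPM in N2a (134 to 191), 1401 in animal 1 and 1296 in animal 2. That difference was under 4-fold when each position was counted once and when ratios were centred on 10 Mb blocks, and the surrounding block had a median log2 ratio of -1.08.

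Among genes of catecholamine handling and autonomic neurons, 6 of 21 counted (28.6%) were higher and 0 were lower, with a median log2 ratio of 1.46. Some of the 21 overlap once flanks are added, and they amount to 18 loci that share no insertions. With each position counted once 3 were higher, and without flanks 3 were higher and 1 lower. Ddc, the decarboxylase that makes dopamine, had 437 IPM in N2a against 19.9 and 21.1, a ratio of 20.7 to the nearer animal (15.2 to 29.0). Some cholinergic genes were high too: Chat, which makes acetylcholine, had 60.7 IPM against 7.95 and 6.56, Slc18a3, the vesicular transporter nested in the same locus, had 25.3 against 1.99 and 2.34, and Slc5a7, the choline transporter, had 77.1 against 7.28 and 5.16. Because Chat and Slc18a3 overlap, they share insertions and are not separate observations, and Slc18a3 was under 4-fold without flanks. Ache, the esterase that breaks down acetylcholine, had 30.3 IPM against 21.9 and 17.3, and the nicotinic receptor subunit Chrna5 had 16.4 against 17.2 and 16.4, both within 2-fold of the animals. Prph, the peripheral neurofilament peripherin, had 79.6 IPM against 16.6 and 15.5, and Chrnb4, a ganglionic nicotinic receptor subunit, had 45.5 against 9.93 and 8.44; both were under 4-fold when single-read insertions or flanks were left out and when each position was counted once. The vesicular monoamine transporter Slc18a2 (130, 41.1 and 41.7 IPM), chromogranin B Chgb (124, 31.1 and 42.7 IPM) and secretogranin Scg2 (101, 26.5 and 25.3 IPM) were above both animals but under 4-fold. Dbh, which turns dopamine into noradrenaline, had 11.4 IPM in N2a against 9.27 and 8.91. Th, the first enzyme of the pathway, had 11 insertions in N2a, 2 in animal 1 and 1 in animal 2, too few to be counted, and the noradrenaline transporter Slc6a2 had 0, 2 and 5. Stmn2, a neuronal growth protein, was the member with the lowest ratio, at 49.3 IPM against 221 and 199.

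Of 18 counted neuroblastoma growth genes, 5 (27.8%) were higher and 3 (16.7%) lower, with a median log2 ratio of 0.83. With each position counted once, or without flanks, 2 were higher. Alk, a receptor kinase often mutated in neuroblastoma, had 771 IPM in N2a (711 to 835), 144 in animal 1 and 131 in animal 2. Lin28a, a suppressor of let-7 microRNAs, had 139 IPM against 10.6 and 9.84, and its paralogue Lin28b had 299.6 against 91.4 and 90.0. Myc had 109 IPM against 17.9 and 15.9, while Mycn, the family member amplified in human neuroblastoma, had 21.5 against 15.9 and 19.7. Alk, Myc and Ccnd1 were under 4-fold when each position was counted once. Ccnd1, cyclin D1, had 124 IPM against 10.6 and 8.44, but its body without flanks had a log2 ratio of -2.10, so the excess in N2a lay in the flanks. Ngfr, the p75 neurotrophin receptor, had 45.5 IPM against 7.28 and 3.75. The 3 lower genes were Ntrk2, the receptor for brain-derived neurotrophic factor, with 10.1 IPM (4.37 to 19.9) against 707 and 625, Kit with 0 insertions against 53.0 and 33.3 IPM, and Igf2bp1 with 1 insertion against 17.2 and 15.5 IPM. For Kit this is at least 8.78-fold lower, set against 3 counts. Ntrk2 differed between the parts of N2a, with 48.1 IPM in experiment 2 and 3.00 in experiments 1 and 3, both under the animals.

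The Hox genes, which pattern the body axis and are little used in forebrain, were higher in N2a in 1 cluster, Hoxc. Of 39 genes, 6 had enough insertions to be counted, Hoxc4 to Hoxc6 and Hoxc8 to Hoxc10. They held 22 to 179 insertions in N2a and at most 3 in either animal, so they reached the minimum of 20 through N2a and had to come out higher; their count and median support nothing. The other 33 genes held fewer than 20 insertions over the 3 tables. The 6 overlap once flanks are added and amount to 2 loci that share no insertions. Hoxc8 (chr15:102990539-102994275) had 226 IPM in N2a (194 to 262) against 1.32 and 1.41, a ratio of 161 (54.2 to 788). Hoxc11 had 17 insertions in N2a, 0 in animal 1 and 1 in animal 2, while Hoxc12 had 2 and Hoxc13 had 0. No gene of the Hoxa, Hoxb or Hoxd clusters had more than 2 insertions in N2a. The 50 kb window over Hoxc6 to Hoxc11 (chr15:102950001-103000000) had 243 IPM against 1.32 and 0.937.

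Mesenchymal and neural crest factors, the markers of the other state that neuroblastoma lines can take, were mixed. Of 15 counted genes, 4 (26.7%) were higher and 2 (13.3%) lower, the second share near that of all loci, with a median log2 ratio of -0.06, whose sign changed with the setting. Pax3, a factor of early neural crest, had 82.2 IPM in N2a against 3.31 and 4.69, with 24.1 IPM in experiment 2 and 93.0 in experiments 1 and 3. Vim, vimentin, had 48.0 IPM against 4.64 and 3.75, though its body without flanks had a ratio under 4-fold. Prrx1 (40.4, 51.7 and 53.9 IPM), Fosl2 (40.4, 46.4 and 38.4 IPM) and Runx2 (259, 346 and 309 IPM), factors of mesenchymal cells, were within 2-fold of both animals. Yap1, a growth regulator, was lower at 11.4 IPM against 54.3 and 61.9, but under 4-fold with each position counted once and when centred on 10 Mb blocks. Snai2, a factor of migrating crest cells, had 1 insertion in N2a against 10.6 and 13.1 IPM, under 4-fold without flanks. Sox10, the defining factor of crest-derived glia, had 3 insertions in N2a and 3 and 5 in the animals.

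**Figure D4:**
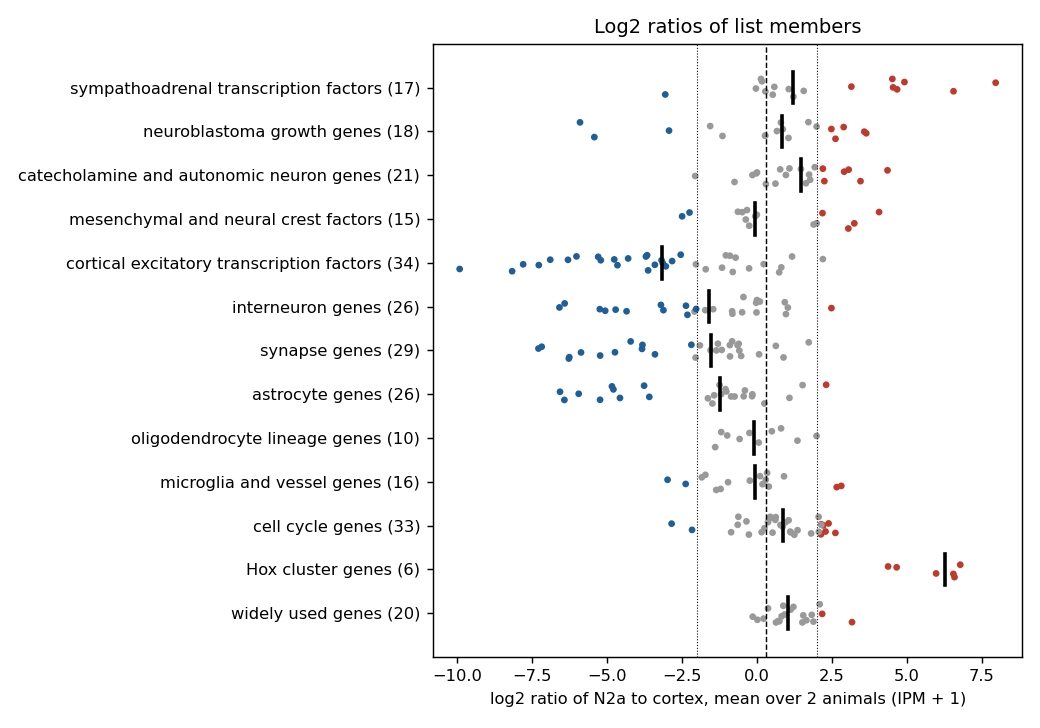
Log2 ratio of N2a to cortex (x axis, mean over the 2 animals, IPM + 1) for each counted member of 13 gene lists (rows, number counted in brackets); red points are 4-fold or more above both animals, blue points 4-fold or more below both, black bars are list medians, the dashed line is the median of all counted loci and dotted lines mark 4-fold. Catecholamine, sympathoadrenal, cell cycle and widely used medians lie to the right of the dashed line, as do the Hox genes, which were counted through N2a, and the cortical, interneuron, synapse and astrocyte medians lie to its left.

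The factors of cortical excitatory neurons had the lowest median of the 13 lists. Of 34 counted genes, 21 (61.8%) were 4-fold or more below both animals and 0 were above, with a median log2 ratio of -3.16. With each position counted once, 16 were lower. Bcl11a (chr11:24076564-24173558), a zinc finger factor of cortical projection neurons, had 0 insertions in N2a against 1492 in animal 1 (988 IPM) and 2021 in animal 2 (947 IPM), at least 250-fold lower set against 3 counts. Neurod6 had 0 insertions against 299 and 276 IPM, at least 72.7-fold lower. Mef2c, a factor of maturing excitatory neurons, had 7.58 IPM in N2a (2.78 to 16.5) against 1340 and 1327, 175-fold below the nearer animal (80.3 to 477). Pou3f2, a factor of upper-layer neurons, had 1 insertion in N2a against 432 and 540. The 2 animals lay close together in each of these genes.

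Several markers of upper and deep cortical layers were low, and others were not. For upper layers, Rorb, of layer 4, had 12.6 IPM in N2a against 530 and 481, while Cux2, an upper-layer gene kept on the sympathoadrenal list, had 437 against 223 and 197. For deep layers, Tbr1 had 11.4 IPM against 329 and 341, Fezf2, which specifies corticospinal neurons, had 6.32 against 137 and 150, Bcl11b had 32.9 against 430 and 408, Foxp2 had 15.2 against 1102 and 1002, and Sox5 had 67.0 against 1738 and 1690. The area factors Emx2, with 0 insertions in N2a, and Nr2f1, with 41.7 IPM against 406 and 370, were low as well. In several of these genes the ratio depended on how insertions were counted: with each position counted once, Pou3f3, Lhx2, Neurod1, Nfix and Nr2f1 were under 4-fold. Nr2f1 and Neurod1 were also under 4-fold when centred on 10 Mb blocks, and Emx2 and Pou3f3 without flanks.

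Some factors on the same list were close or higher in N2a. Zbtb20, which is broadly expressed, had 1896 IPM in N2a, 1609 in animal 1 and 1642 in animal 2. Tshz2 had 879.7 IPM against 326 and 469, and Etv1 had 250.3 against 121 and 168. Eomes, the marker of intermediate progenitors of the developing cortex, had 21.5 IPM in N2a against 4.64 and 3.28; it was 4-fold or more above 1 animal and not the other. Nfia (966, 1526 and 1649 IPM) and Cux1 (159, 211 and 174 IPM) were within 2-fold.

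Interneuron genes followed the cortex too, with 11 of 26 counted lower (42.3%), 1 higher and a median log2 ratio of -1.59. Centring on 10 Mb blocks left 7 lower. Dlx6 had 1 insertion in N2a against 197 and 188 IPM, and its overlapping neighbour Dlx5 had 0 against 93.4 and 97.5; both are homeobox factors of interneuron precursors. Gad1, which makes GABA, had 1.26 IPM (0.0320 to 7.04) against 45.0 and 45.5, whereas Gad2, the other enzyme for the same reaction, had 64.5 against 66.9 and 63.7. Erbb4, the neuregulin receptor of interneurons, had 18.96 IPM against 507 and 542, and Sst, somatostatin, had 3.79 against 43.7 and 38.0, under 4-fold when each position was counted once and when centred on blocks. The exception above 4-fold was Gsx2, a ventral progenitor factor, at 18.96 IPM (10.6 to 31.3) against 1.99 and 3.28, from 15 insertions; it was under 4-fold without flanks.

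Of 29 synapse genes, 12 (41.4%) were lower in N2a, 0 were higher and the median log2 ratio was -1.55. The NMDA receptor subunit Grin2b had 3 insertions in N2a, 3.79 IPM, against 721 and 671, a ratio of 177 (60.4 to 859). The GABA receptor subunit Gabrb2 had 8.85 IPM against 253 and 271. Slc17a6 had 1 insertion in N2a against 181 and 168 IPM, while Slc17a7, the other cortical glutamate transporter gene, was low everywhere at 3.79, 11.3 and 11.2 IPM. Genes of the release machinery were mixed. Rims1, of the active zone, was lower at 27.8 IPM against 409 and 412. Syt1, the calcium sensor, had 732 IPM against 1136 and 1160, and Snap25, of the fusion complex, had 105 against 199 and 196. Syn2, a synaptic vesicle protein, was above both animals but under 4-fold, at 447 against 130 and 139. Synapse genes are long, with a median of 148 kb. Over all counted loci, genes of 100 to 300 kb had a median log2 ratio of -0.18 and those of 300 kb or more had -1.65. The part that gene length has in the synapse median was not tested.

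Astrocyte genes were lower in 9 of 26 counted loci (34.6%) and higher in 1, with a median log2 ratio of -1.22. The glutamate transporter Slc1a2 had 1 insertion in N2a against 209.9 and 219 IPM, and Slc1a3 had 5.06 IPM against 166 and 179.5. Sox2, a factor of neural progenitors and glia, had 3.79 IPM against 309 and 282, and all 3 insertions came from experiment 2. Ptprz1, a receptor phosphatase of glia and progenitors, had 1 insertion against 181 and 208 IPM. Gfap had 17.7, 17.2 and 12.7 IPM and Sox9 had 22.8, 23.8 and 27.2, so the classic astrocyte markers did not all separate the tables. Aldh1l1 was higher in N2a, at 55.6 IPM against 8.61 and 12.7, with 2 insertions in experiment 2 and 42 in experiments 1 and 3; it was under 4-fold when each position was counted once.

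Oligodendrocyte and microglia genes gave little contrast. Of 10 counted oligodendrocyte lineage genes 0 were past 4-fold either way, with a median log2 ratio of -0.10; Olig2 had 3.79 IPM in N2a against 10.6 and 9.37, and Mbp had 37.9 against 99.3 and 104. Of 16 counted microglia and vessel genes, 2 (12.5%) were higher and 2 (12.5%) lower, with a median log2 ratio of -0.07. Pecam1, an endothelial adhesion gene, had 202 IPM in N2a against 27.8 and 28.1, and Tek, an endothelial receptor kinase, had 72.0 against 9.93 and 11.2. Pecam1 was under 4-fold when centred on 10 Mb blocks. The lower genes are vessel genes as well: Slco1a4, an endothelial transporter, had 0 insertions in N2a against 7.28 and 6.56 IPM, and Kdr, a receptor for vascular endothelial growth factor, had 1.26 IPM against 9.93 and 11.7 and was under 4-fold in 4 of 7 alternatives. The microglial genes Cx3cr1 (6.32, 5.30 and 4.69 IPM) and C1qb (3.79, 4.64 and 4.69 IPM) were near the level of 3 insertions. Summed over the list, microglia and vessel loci had 0.410 IPM per kb in N2a and 0.242 and 0.212 in the animals. Pecam1 and Tek gave 202 and 72.0 of the 517 IPM summed over the list in N2a, so the larger sum in N2a rests on these genes.

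Genes of the cell cycle, a list that holds cyclin-dependent kinase inhibitors beside genes of dividing cells, leaned towards N2a by a modest amount. Of 33 counted genes, 6 (18.2%) were higher and 2 (6.06%) lower, and the median log2 ratio was 0.86. With each position counted once, 0 were past 4-fold in either direction. The widely used genes, a list of housekeeping loci, had a median of 1.02, with 2 of 20 higher, B2m among them, and 0 lower, and 0 higher with each position counted once, and the cell cycle median lay close to that of genes most cells use. The order of the medians turned with at least 2 reads (0.91 for cell cycle, 0.89 for widely used genes) and without animal 1 (1.04 and 0.97). Ribonucleotide reductase had both subunits on the list: Rrm1 had 44.2 IPM against 8.61 and 7.97, and Rrm2 had 63.2 against 11.3 and 7.97. Rrm2 without flanks had a log2 ratio of -0.057, and its promoter site above lies in the flank. The cyclin-dependent kinase inhibitor genes split: Cdkn1b had 425 IPM in N2a against 96.0 and 96.1, and Cdkn1a, the p53 target p21, had 2.53 against 24.5 and 24.4. Cdkn2a had 17 insertions in N2a, 2 in animal 1 and 0 in animal 2, too few to be counted. Mki67, the proliferation marker, had 40.4 IPM against 10.6 and 6.56, under 4-fold of animal 1.

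Beyond the lists, the 15 loci with the highest ratio were named by rule. After Hand2 came Mab21l2, a gene of eye and midbrain development that lies inside Lrba (523 IPM in N2a against 3.31 and 2.34), and Hoxc8. Olfr69, an olfactory receptor gene, had 114 IPM against 0.662 and 0.937, and Dnajb8, which lies beside Gata2 and shares its window, had 80.9 against 0 and 0.469. A4galt, a glycolipid synthase, had 270.5 IPM against 4.64 and 4.69, Dkk1, a secreted Wnt antagonist, had 413 against 8.61 and 6.56, and Dazl, a germ cell RNA-binding gene, had 819 against 17.2 and 27.2. Others were Tmem138, Prr9, Ltbr and the factors Runx3 (116 IPM against 1.32 and 2.81), Hlx (70.8 against 1.32 and 1.41) and Tbx20 (201 against 5.96 and 2.81). Dnajb8, Tmem138 and Ltbr were under 4-fold without flanks, so their insertions lay beside the gene.

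The 15 loci with the lowest ratio held 11 with 0 insertions in N2a. Beside Bcl11a and Neurod6 they included Epha7, an ephrin receptor (651 and 710 IPM in the animals, at least 172-fold lower in N2a), Fras1, an extracellular matrix gene (220 and 217 IPM, at least 57.1-fold), Gabra2 (220 and 213 IPM, at least 56.2-fold), Lrrtm1, a synaptic adhesion gene (158 and 154 IPM, at least 40.5-fold), and Gli3, a hedgehog pathway factor that patterns the telencephalon (150.3 and 159 IPM, at least 39.6-fold). Cdh8, a cadherin, had 2 insertions in N2a against 578 and 639.8 IPM. Sema5a and Crtac1 were also at 0 in N2a, as were the predicted genes Gm36722, whose locus overlaps Tshz3, and Gm42163, whose locus overlaps Epha5. Lrrtm1 lies inside Ctnna2, so its insertions may belong to either gene.

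Windows with no gene were among those with the highest and lowest ratios. A window 371 kb from Hand2 (chr8:56900001-56950000) had 306 IPM against 2.65 and 2.81, and 1 at 73.6 kb from Slc5a7 (chr17:54150001-54200000) had 269 against 1.32 and 2.81. On the cortex side, the window chr13:84050001-84100000, 383 kb from Mef2c, had 0 insertions in N2a against 1248 and 1648, or 826 and 772 IPM. These distances give position and do not link a window to a gene.

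N2a insertions lay closer to gene ends than cortex insertions. Within 1 kb of the end of a protein-coding gene lay 10.4% of N2a insertions (exact binomial interval 10.4 to 10.5), 6.75% of animal 1's and 6.39% of animal 2's, while 33.9% of N2a insertions were over 50 kb away against 46.4% and 47.7%. Inside genes lay 43.6% in N2a against 54.3% and 54.1%. Around start sites all 3 tables had their peak 0.5 to 1 kb before the start, which reached 3.33 IPM per kb per site in N2a, 1.77 in animal 1 and 1.68 in animal 2. The sides were less even in N2a: 2.5 to 3 kb before the start it had 0.896 IPM per kb per site against 0.583 and 0.557, and 2.5 to 3 kb after the start 0.617 against 0.662 and 0.630. Within 1 kb of a start site lay 7.31% of N2a insertions, with 7.95% in experiment 2 and 7.20% in experiments 1 and 3, against 4.27% and 4.11% in the animals. The parts of N2a differed from each other by less than either differed from the animals.

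Gene length and density went along with this shift. Loci of genes under 10 kb had a median log2 ratio of 0.44, those of 100 to 300 kb had -0.18, and the 530 loci of genes of 300 kb or more had -1.65, with 46.6% of them lower and 3.02% higher. Windows with no gene had a median log2 ratio of -1.48, those with 1 gene -0.65, those with 2 or 3 genes 0.34 and those with 4 or more 0.60. The share of all insertions gave another picture. Windows with no gene held 27.6% of N2a insertions, against 27.1% and 27.9% in the animals. Those with 1 gene held 47.4% against 55.8% and 55.6%, and those with 2 or 3 held 21.1% against 14.9% and 14.4%. The part that gene length and density have in the list medians was not tested. With the animals thinned to the number of N2a insertions, 50% of the insertions lay in 4155 windows in N2a, against 6609 and 6817 in the animals. Reads per insertion, with a median of 5 in N2a and 2 in each animal, and the number of libraries were not matched.

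**Figure D5:**
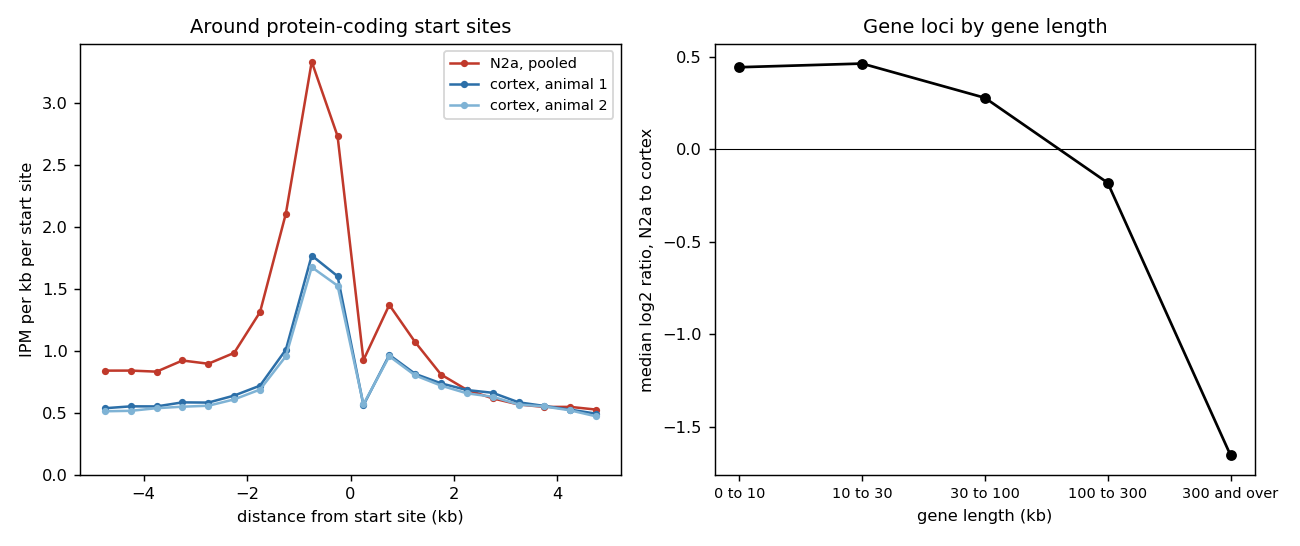
Left, insertions per 1000000 per kb per start site in 0.5 kb bins within 5 kb of protein-coding start sites, for N2a and the 2 cortex animals, with transcription running to the right. Right, median log2 ratio of N2a to cortex (IPM + 1) of the counted loci by gene length; the N2a peak before start sites is the tallest, and the median falls below 0 for genes of 100 kb and over.

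Whole chromosomes differed as well. Chromosome 19 held 3.30% of N2a insertions against 2.46% and 2.43% in the animals, a log2 ratio of 0.44, and chromosomes 7, 8 and 11 followed with 0.35, 0.33 and 0.32. Chromosome 16 had the lowest ratio at -0.50, with 3.37% against 4.70% and 4.85%. Between the animals no chromosome differed by more than 0.05. In 253 blocks of 10 Mb the median window ratio ran from -3.41 to 1.17 with a median of -0.42, and between the animals from -0.24 to 0.20. The part that chromosome copy number has in these values was not tested. The blocks of Hand2 (0.10) and Bcl11a (-0.39) had ratios far smaller than those of the genes themselves, while Mef2c (-2.03) and Epha7 (-2.80) lay in blocks low as a whole.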

How the data were processed

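The tables hold 1 insertion per line with its position, strand, reads and library barcode, and the values used are counts of insertions that the authors deposited after mapping. The submitters' processing notes name Novoalign, Bowtie2 and the build mm10, without roles or versions. Reads come from RNA amplified by PCR, per the labels' protocols, so an insertion in a transcribed or well amplified place can be seen more easily. The authors pooled the N2a libraries into 1 table and the pieces of each cortex into another.

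Insertions on chromosomes 1 to 19 were counted in 50 kb windows and in protein-coding loci (GRCm38 gene body with 10 kb flanks), and scaled to IPM. Ratios used IPM + 1. A place was counted with at least 20 insertions over the 3 tables and called with N2a 4-fold or more above or below both animals. There is 1 N2a table, so no p-value is given. Named genes are list members, plus the 15 highest and 15 lowest loci with at least 50 insertions on the higher side and the 8 and 8 windows by the same rule, skipping overlapping loci and windows within 200 kb. The members and the 13 lists were chosen with earlier results of these data known. Some genes that the lists and the rule hold, and windows near them, are not reported here, but they remain in the counts. Where the text goes beyond a list or rule, the choice was made after values were seen. Promoters come from the RefSeq table for GRCm38.p6, which held 16457 of the loci used. Python 3.11.15, numpy 2.4.6, pandas 2.3.3 and scipy 1.17.1 were used, and edgeR 4.0.16 in R 4.3.3 gave the TMM factors of an alternative scaling. The ratio and the 4-fold rule were tried on simulated Poisson counts of loci, drawn without insertion positions or repeats. Alternatives were distinct positions, at least 2 reads, TMM, centring on 10 Mb blocks, other pseudocounts, minimums, folds, depths, windows and flanks, each animal left out, and each part of N2a alone.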

Additional observations from a re-analysis of the deposited data

How the results depend on the processing

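Against 2578 higher windows, counting each position once gave 1483, centring on 10 Mb blocks 4599, an 8-fold limit 700, windows of 20 kb 4775 and of 100 kb 1296. Against 11326 lower windows, centring gave 6949, 8-fold 7045 and 100 kb windows 6945. Against 1055 higher loci, distinct positions gave 409, centring 2143, 8-fold 231 and gene bodies without flanks 513. Against 1620 lower loci, 8-fold gave 926 and experiment 2 alone 3256. Distinct positions kept 380 of the higher and 1221 of the lower loci. Leaving out either animal gave 3019 to 3054 higher and 7914 to 10143 lower windows, and 1252 to 1303 higher and 1429 to 1532 lower loci. List medians with distinct positions were 0.86 (sympathoadrenal), 1.04 (catecholamine), 0.19 (mesenchymal), -1.48 (cortical), -0.73 (interneuron), -0.95 (synapse), -0.82 (astrocyte), 4.93 (Hox) and 0.87 (widely used). With at least 2 reads they were -0.33 (mesenchymal), -3.62 (cortical), -1.45 (astrocyte) and 0.89 (widely used). Centred on blocks they were 1.65 (sympathoadrenal), 1.26 (growth), 1.91 (catecholamine), 0.89 (mesenchymal), -2.56 (cortical), -0.9996 (interneuron), -1.003 (astrocyte), 0.27 (oligodendrocyte), 1.29 (cell cycle), 5.45 (Hox) and 1.42 (widely used). Without flanks they were 1.60 (sympathoadrenal), 0.30 (growth), 0.74 (catecholamine), -0.52 (mesenchymal), -3.38 (cortical), -2.34 (interneuron), -2.11 (synapse), -2.12 (astrocyte), -0.76 (oligodendrocyte), 0.52 (cell cycle), 5.37 (Hox) and 1.15 (widely used). Leaving out either animal gave -0.19 to -0.021 (mesenchymal), -3.25 to -3.12 (cortical), -1.90 to -1.58 (interneuron), -1.76 to -1.44 (synapse), -1.31 to -1.22 (astrocyte), -0.019 to 0.21 (oligodendrocyte), 0.77 to 1.04 (cell cycle) and 0.97 to 0.98 (widely used). The sign of the median held in all 7 alternatives for 10 of the 13 lists, and not for the mesenchymal, oligodendrocyte and microglia lists. The share of insertions within 1 kb of a gene end was 7.48% in N2a, 5.17% in animal 1 and 4.74% in animal 2 with distinct positions, and 7.29% and 6.67% in the animals with at least 2 reads. Without flanks the ratio of Ccnd1 reversed to -2.10 and that of Rrm2 to -0.057. Of 125 named loci, 81 were past 4-fold in all 7 alternatives. The cause of these shifts was not tested. No paired analysis was possible because the N2a table is pooled and no test was run. N2a has the fewest insertions, which limits bounds at 0 to 3.79 IPM.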

Other observations

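The most used N2a positions that were empty in both animals included sites near Hand2 and near genes on no list. The first was chr8:57331835, 7.32 kb from Hand2, with 40 insertions in N2a, 13 from experiment 2 and 27 from experiments 1 and 3, on both strands. Others with 37 and 32 insertions lay 6.32 kb from Runx3 and 2.498 kb from A4galt, both among the loci named above, and 38 insertions lay 9.13 kb from Wipi1, a gene of autophagy.

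The 10 positions used most often in N2a overall were all used in both animals. The site inside Arhgef18 had 52 insertions in N2a, 3 in animal 1 and 5 in animal 2, and a site 66.8 kb from Chd2 had 50, 18 and 20. Of the 470160 positions of N2a, 26.5% were also used in animal 1, 31.7% in animal 2 and 59.3% in neither. Of the positions of animal 1, 45.2% were also used in animal 2. Positions with at least 10 insertions held 11.7% of the insertions of N2a, 4.27% of those of animal 1 and 6.24% of those of animal 2; the number of libraries per table differs, so these shares are a description.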
